A study of Drosophila melanogaster with 12 samples.

Results

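The set described here is 895 regions of open chromatin that the authors counted in adult female Drosophila melanogaster tissue labelled gut, that have no overlap with any region of the table labelled fat body, and that lie at the end of a protein-coding gene. They come from the table labelled gut, which lists 2906 regions. Of those, 2049 lay on the euchromatic part of chromosome arms 2L, 2R, 3L, 3R or X, and 283 of them overlapped a region of the table labelled fat body, which has 3447. A region without overlap was a member if its midpoint was within 500 bp of either end of a gene of Release 6, which left 895 regions, while the other 871 lay farther away. Members were thus chosen by their presence in one table, their absence from the other and their position, so none of these is a result. Coordinates are those of the deposited table, read as Release 6.

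The libraries are ATAC-seq, in which the transposase Tn5 cuts accessible DNA and adds sequencing adapters. Every sample has the genotype S106_UASfoxo, a driver line joined with a foxo transgene. S106 is a GeneSwitch driver known for activity in adult abdominal fat body and digestive tract, and it acts only when the steroid RU486 is eaten. Flies were reared on food with 10% yeast and 5% sucrose, and females were mated for 48 h. Switched flies (RU486+) ate 200 µM RU486 for 21 days and then 7 days of control food. The treatment text is the same for all samples, and controls differ from it by the label RU486-. Each group has 3 gut libraries. No group without the foxo transgene ate the drug, so the drug and the induction cannot be told apart.

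Open chromatin at a gene's start is where transcription factors and RNA polymerase gain access to a promoter, and it is commonly free of nucleosomes in active genes. foxo encodes the forkhead transcription factor that insulin signalling keeps out of the nucleus, and in the fly it acts on metabolism and lifespan from fat body and gut. The gene table holds no strands, so a start could not be told from the opposite end of a gene, and "gene end" means either.

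The 6 libraries labelled gut held 99191 to 709659 counts, of which 69.2% to 87.6% were mitochondrial. Both libraries numbered 1 were shallow, with 111244 counts in control replicate 1 and 99191 in switched replicate 1. In these 2 libraries 30.8% and 28.7% of nuclear counts lay on unplaced scaffolds or the Y chromosome, against 3.76% to 6.32% in the other 4. The tissue label was checked against markers. Of 7 gut identity genes 0 had a member region, and only Myo61F, a brush border myosin gene, had a region of any kind in the table, while GATAe, Ptx1, cad, lab, nub and Myo31DF had none. Of 10 fat body genes on the arms 4 had a member region (Yp1, Yp3, Lsd-1 and srp), and Lsp1beta and bmm had another region. Over all regions at this list the level was 934 to 1722 CPM in control and 527 to 1919 CPM in switched libraries, where CPM is the count scaled to library size with TMM factors. In the table labelled fat body 2 of these 10 fat body genes had a region, as did 2 of the 7 gut identity genes (GATAe and Ptx1). Of 12 digestive enzyme genes 2 had a region in the table labelled gut and 7 in that labelled fat body. These counts go against the tissue labels, though the share of all genes with a region was not counted for either table. The tables differ in size, with 2906 regions (labelled gut) and 3447 (labelled fat body). The files do not tell whether the tissue names of the tables were exchanged. "Labelled gut" and the absence from the other table are therefore used as the names of the tables, not as a tissue. In whole tissue, fewer cells of a type and less open chromatin per cell cannot be told apart.

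Within the 500 bp allowed by the rule, most member midpoints lay close to the gene end. This is a description, with no random positions set beside it. The midpoint was a median of 84 bp from the nearest end, 505 of 895 members (56.4%) were within 100 bp and 708 (79.1%) within 250 bp. The gene end itself lay inside the region in 413 members (46.1%). Of all members 487 had their midpoint outside the nearest gene and 408 inside it, and 410 lay over no protein-coding gene at all. Within 100 bp of the end, 330 members lay outside the gene and 175 inside. From 250 to 500 bp the order was the other way, with 57 outside and 130 inside. At the bound itself, the members farthest out were regions in Hrb98DE, an RNA-binding protein gene, at 499 bp and in Yp1 at 498.5 bp. The nearest regions left out were in eff, a ubiquitin-conjugating enzyme gene, at 502 bp and in babos at 502.5 bp.

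**Figure D1:**
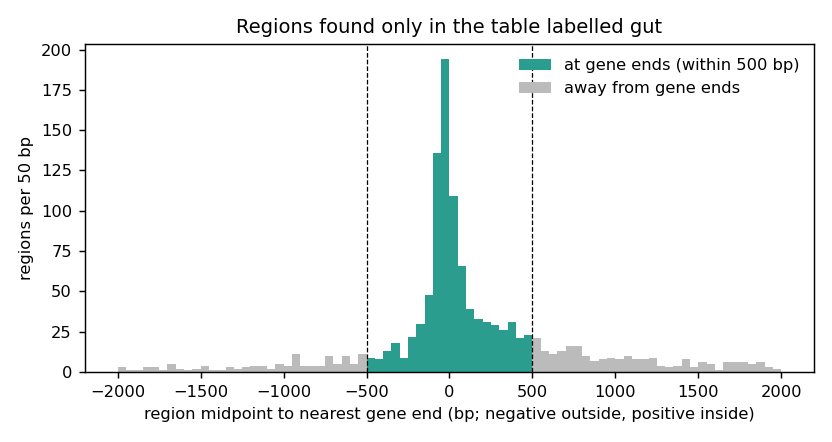
Number of regions found only in the table labelled gut per 50 bp of distance between the region midpoint and the nearest gene end, with negative distances outside the gene and positive distances inside. Dashed lines mark 500 bp, and the 895 members (green) pile up within 100 bp of the end, more of them outside the gene than inside.

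The members were short and spread over many genes. Their median length was 134 bp, with quartiles of 108 and 189 bp and a range of 82 to 720 bp, and 119 members had the minimum length of 82 bp. The regions away from gene ends had a median of 143 bp, and the regions shared between both tables had 206 bp. The nearest genes numbered 829, of which 766 had 1 member, 60 had 2 and 3 had 3. In all, 1148 genes had an end within 500 bp of a member, which is 8.44% of the 13605 protein-coding genes of the arms. At 341 members (38.1%) the ends of 2 or more genes lay within 500 bp. Of all gene ends of the arms, 54.9% have an end of another gene within 500 bp. That share is counted per gene end, so both ends of a close pair enter it, while the 38.1% is counted per region. These shares therefore cannot be set against each other. The nearest genes had a median span of 3790 bp, against 2137 bp for all genes of the arms. On the X chromosome 11.6% of genes had a member, against 7.44% to 8.05% on the other arms. The X held 21.6% of the members, 18.7% of the regions away from gene ends and 22.3% of the shared regions, and 15.6% of the genes. These positions are descriptions with no test.

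Reads at the members were sparse. The median count per member was 29, 22, 35 and 19 in control replicates 2 and 3 and switched replicates 2 and 3. In the shallow libraries it was 5 (control replicate 1) and 0 (switched replicate 1). At least 1 count was found at 64.6%, 96.3% and 90.2% of members in control replicates 1 to 3 and at 38%, 94.6% and 84.2% in switched replicates 1 to 3. Reads in all 6 libraries were found at 191 members, in 5 at 359, in 4 at 236, in 3 at 91, in 2 at 12 and in 1 at 6. The highest count of a member in any library was 475. The 10 members with the highest mean took 6.32% of the counts of the set, and the 90 highest took 28.1%. The SD between replicates was a median of 85% of the mean in control and 93.2% in switched libraries.

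The ranking of members was only loosely shared between libraries. Across the 895 members, Spearman's rho between the 4 deep libraries ranged from 0.258 (control replicate 2 with switched replicate 3) to 0.416 (switched replicates 2 and 3). Across the 871 regions away from gene ends, the same pairs gave 0.39 to 0.561, and each pair of deep libraries was higher there. With a library numbered 1, rho across members was 0.0512 to 0.239. These correlations describe regions within pairs of libraries, which are not independent replicates, and the shallow libraries limit their own values.

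Read density at members was set against that of other regions of the same libraries, and no difference passed the test. The median count per 100 bp was 21 at members and 20.8 at regions away from gene ends in control replicate 2, 15.5 and 14.2 in control replicate 3, 26 and 25.6 in switched replicate 2, and 13 and 10.8 in switched replicate 3. In control replicate 1 it was 3.25 and 3.26, and in switched replicate 1 it was 0 at both. That difference of 0 left 5 values to flip in the sign-flip test below, whose smallest possible p was then 0.0625. The comparison with regions away from gene ends could thus not pass 0.05, and missing it says nothing. The mean within-library difference was 0.698 ± 0.911 counts per 100 bp (SD, n = 6), and members were higher in 4 of 6 libraries (exact two-sided sign-flip permutation p = 0.125, 0.1667 after Benjamini-Hochberg adjustment over 4 comparisons). Against the regions shared with the fat body table the difference was 1.86 ± 2.29 counts per 100 bp (SD, n = 6), again with members higher in 4 of 6 libraries (exact p = 0.125, adjusted 0.1667). The median member had 35.8 CPM per 100 bp, the median region away from gene ends 34.9 and the median shared region 34.5.

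The share of regions with at least 1 count was higher at members by 2.97, 3.6, 5.54 and 4.57 percentage points in the 4 deep libraries, while the difference was -1.55 points in control replicate 1 and -0.128 points in switched replicate 1. The mean difference of 2.5 ± 2.77 points (SD, n = 6) did not pass the test (exact sign-flip permutation p = 0.125, adjusted 0.1667). Against shared regions the mean difference was -3.34 ± 7.83 points (SD, n = 6), with members higher in 3 libraries and lower in 3 (exact p = 0.4375, adjusted 0.4375). It was lowest in the shallow libraries, where 76.3% and 51.9% of shared regions were read against 64.6% and 38% of members. Without these 2 libraries the difference was 1.41 points. Shared regions were also longer (median 206 bp against 134 bp at members), and this measure is not scaled to length.

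**Figure D2:**
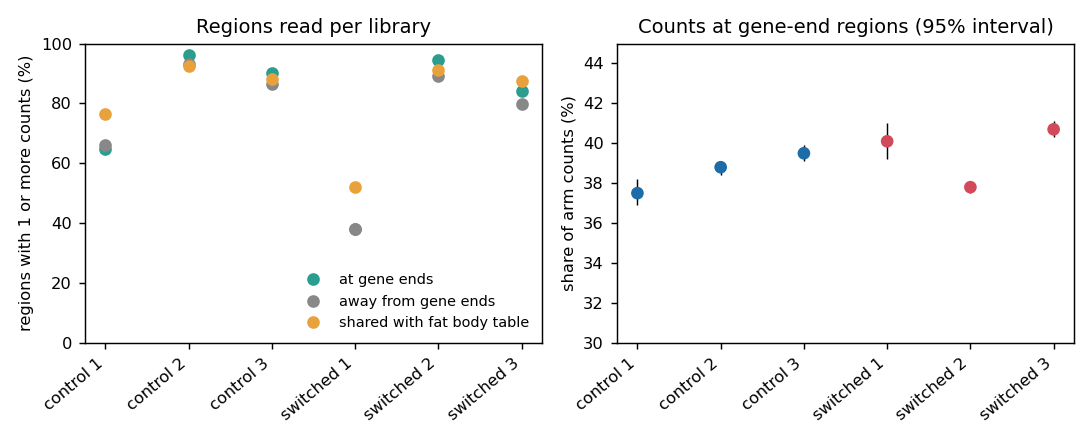
Left, percent of regions with 1 or more counts in each of the 6 libraries labelled gut, for the 895 gene-end regions (green), the 871 regions away from gene ends (grey) and the 283 shared regions (orange); in switched 1 the green point lies under the grey one. Right, counts at gene-end regions as percent of counts on the euchromatic arms, blue for control and red for switched, with 95% Clopper-Pearson intervals; all 6 libraries lie between 37.5% and 40.7% on an axis that starts at 30%.

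The share of reads at the members did not separate flies with past foxo induction from controls. Members held 37.5%, 38.8% and 39.5% of the counts on the euchromatic arms in the 3 control libraries, and 40.1%, 37.8% and 40.7% in the 3 switched ones, so that the groups overlapped. The 95% Clopper-Pearson interval was 36.9% to 38.2% in control replicate 1 and 40.3% to 41.1% in switched replicate 3, and these intervals cover counting error only. The means were 38.6% ± 0.998 and 39.5% ± 1.53 (SD, n = 3), a difference of 0.938 percentage points (exact two-sided permutation p = 0.4, where 0.1 is the smallest that 3 against 3 can give).

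The 10 members with the highest mean CPM, which is not scaled to length, included regions at genes of the fat body, of oenocytes and of metal binding. Others were at genes known only by number. All 10 were long, at 326 to 720 bp. Per 100 bp, CG30431 (38.55 CPM) and MtnA (42.76 CPM) lay within the member quartiles of 26 and 47.4, and the others lay above them. The highest mean was at CG13315 (3L, 9096741 to 9097380), with counts of 35, 253 and 288 (control, here and below in replicate order) against 16, 357 and 237 (switched). At CG8665 (2L, 21370595 to 21371221) the counts were 31, 111 and 302 (control) against 0, 475 and 265 (switched). In both, the libraries numbered 1 were lowest and the groups overlapped.

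Yp1 encodes a yolk protein that the female fat body and the follicle cells of the ovary secrete. Its strongest region (X, 10053653 to 10054059) had 50, 267 and 205 (control) against 1, 329 and 98 (switched) counts. That is 447.3 ± 138.5 CPM in control and 261.9 ± 253.0 CPM in switched libraries (SD, n = 3), with overlapping groups. Per length it was the densest of the 10 highest members, at 87.13 CPM per 100 bp. Yp1 was also 1 of the 3 genes with 3 members. Its second region had 8, 62 and 54 (control) against 8, 94 and 47 (switched) counts, and its weakest 1, 8 and 15 against 0, 37 and 9. The 3 regions thus ran from strongly to barely read along the same gene.

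Cyp4g1 is the cytochrome P450 of oenocytes that makes cuticular hydrocarbons. Its region (X, 468767 to 469243) had 25, 163 and 299 (control) against 2, 123 and 187 (switched) counts. Lsd-1, a perilipin on lipid droplets, had 40, 187 and 110 against 21, 263 and 137 at its region (3R, 23763886 to 23764316). At 294.9 ± 76.01 CPM in control and 301.9 ± 157.1 CPM in switched libraries (SD, n = 3), Lsd-1 was nearly level between the groups.

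MtnA encodes a metallothionein that binds copper, and it had 3 members too. The region just outside it (3R, 9783052 to 9783711) had 6, 182 and 276 (control) against 0, 227 and 90 (switched) counts. The other regions of MtnA had 0, 25 and 14 against 1, 59 and 25 counts, and 12, 20 and 107 against 1, 74 and 68. CG7369 was the remaining gene with 3 members, with 0, 37 and 38 against 14, 97 and 24 counts at the region on its end. The next region of CG7369 had 59, 8 and 16 against 0, 32 and 9, so that the shallow control library was highest there even before scaling. The 10 highest members also held regions at CG4716, fok, CG30431 and CG9928. All 10 had overlapping groups, 7 had reads in all 6 libraries, and their log2 fold changes ran from -0.86 to 0.51 with standard errors of 0.885 to 1.2.

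**Figure D3:**
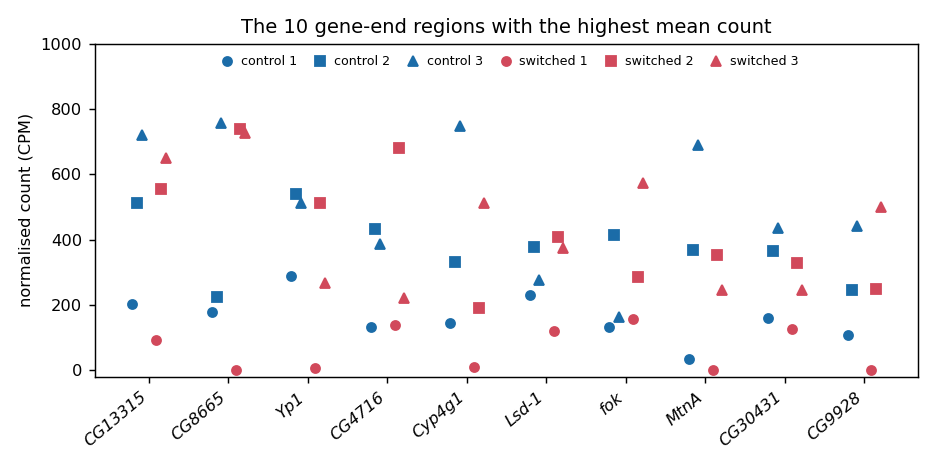
Normalised count (CPM) of the 10 gene-end regions with the highest mean, named by the nearest gene, in each of 3 control (blue) and 3 switched (red) libraries; the symbol gives the replicate number. Control and switched values overlap in all 10, and switched replicate 1 is at 0 at CG8665, MtnA and CG9928.

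Gene lists describe which kinds of gene carried a member. The background is the 8.44% of all protein-coding genes of the arms. Of 18 lipid genes 5 (27.8%) had one: Lsd-1, the second perilipin gene Lsd-2, SREBP, the transcription factor of lipid synthesis, Acsl, which activates fatty acids, and CG3902. Another 8 of the 18, among them FASN1, ACC and Desat1, which make and desaturate fatty acids, had a region of the table that was not a member. Lsd-2 had 12, 35 and 36 (control) against 13, 77 and 52 (switched) counts just outside the gene, and 0, 83 and 26 against 0, 35 and 22 just inside it. Neither region separated the groups. A member lay at 2 of 6 haemocyte genes, 1 of 8 muscle genes (Mhc, within the neighbouring Cyt-b5-r), 0 of 6 neuronal genes, 1 of 6 ovary genes (nanos) and 0 of 5 gut stem cell and enteroendocrine genes. Of 12 digestive enzyme genes 2 had a member, LManII and Mal-A5, with at most 90 counts in a library.

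All 8 circadian clock genes had a region in the table, and 4 of them (50%) a member: Clk and cyc, whose products pair as the activator of the clock, per, the repressor that feeds back on them, and cry, the blue light receptor. The member at Clk had 12, 35 and 34 (control) against 0, 40 and 75 (switched) counts, and that at per 0, 41 and 15 against 9, 21 and 38. At cry they were 24, 46 and 6 against 31, 56 and 6. In each of these the control and switched values overlapped in CPM.

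Immune genes had 3 of 17 (17.6%). Rel encodes the NF-kappaB factor of the Imd pathway, PGRP-SD a peptidoglycan recognition protein and spz the ligand of Toll. The longer Rel region (3R, 9047431 to 9047884) was read in every library. It had 36, 90 and 53 (control) against 26, 228 and 130 (switched) counts, or 174.1 ± 38.08 and 287.0 ± 118.2 CPM (SD, n = 3). The shorter had 11, 65 and 3 against 0, 40 and 0, and both lay at the same end of Rel, with overlapping groups. Stress response genes had 5 of 24 (20.8%): Atf3 and Ets21C, transcription factors of the stress response, Ire1, a sensor of unfolded protein, and ref(2)P and Atg8a, which act in autophagy. Atf3 had 0, 104 and 29 (control) against 10, 92 and 66 (switched) counts.

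Other lists covered the cell's basic machinery and detoxification. Cytosolic ribosomal protein genes had a member in 7 of 82 (8.54%), mitochondrial ribosomal protein genes in 4 of 72 (5.56%), proteasome genes in 2 of 48 (4.17%), V-ATPase genes in 3 of 33 (9.09%), nuclear respiratory chain genes in 7 of 81 (8.64%) and mediator genes in 2 of 23 (8.7%). Glutathione transferase genes had 2 of 35 (5.71%). Translation initiation factor genes stood at 7 of 42 (16.7%), Rab GTPase genes, which direct vesicle traffic, at 5 of 32 (15.6%) and cytochrome P450 genes, which oxidise hormones, lipids and toxins, at 11 of 82 (13.4%). RpL14 had 21, 41 and 42 (control) against 6, 102 and 55 (switched) counts, and ND-13B of respiratory complex I had 35, 112 and 77 against 0, 153 and 39. RpS14b has a near-identical copy beside it, so how reads were split there is uncertain. Cyp6d5 had 7, 100 and 146 against 0, 113 and 106.

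**Figure D4:**
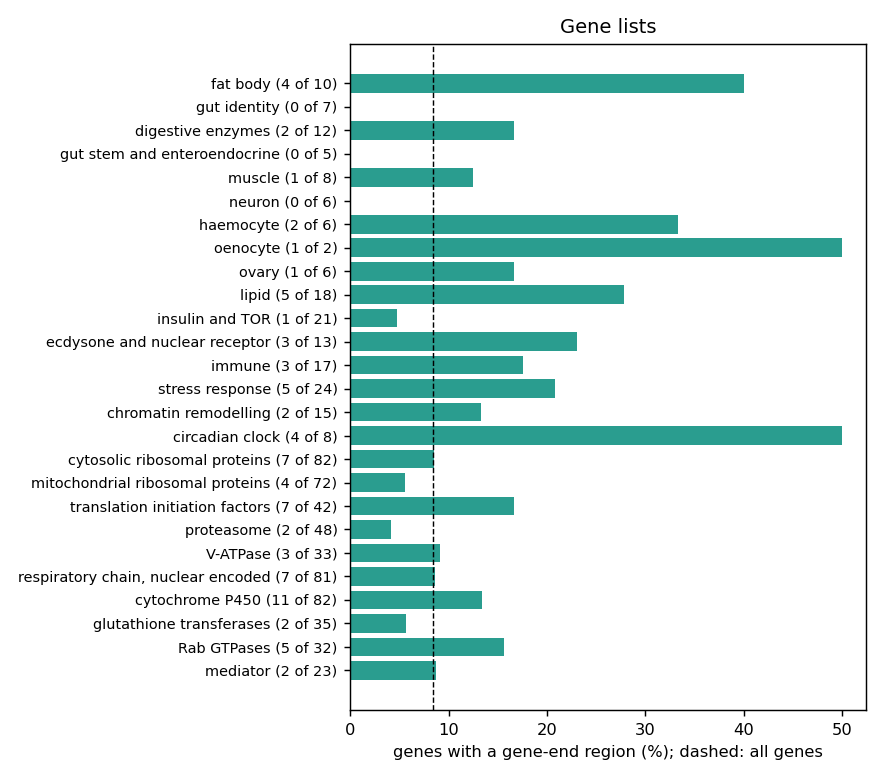
Percent of the genes of each list that have a gene-end region, with the number of such genes of all genes of the list on the arms; the dashed line marks the 8.44% of all protein-coding genes. Oenocyte genes (only 1 of 2) and circadian clock genes (4 of 8) reach 50% and fat body genes (4 of 10) 40%. Gut identity, gut stem cell and enteroendocrine, and neuronal genes are at 0%.

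Of 21 insulin and TOR genes 1 had a member (4.76%, against the 8.44% of all genes), and 9 others, foxo, InR and Akt among them, had another region in the table. The member gene was Pi3K21B, which encodes the regulatory subunit of the PI3 kinase that insulin receptors recruit. It had 2 regions nearest to it. The one on the gene end (2L, 297858 to 297981) had 10, 57 and 7 (control) against 0, 13 and 20 (switched) counts, which overlapped. The one farther inside (2L, 298098 to 298224) had 7, 39 and 42 against 0, 5 and 0, so that all switched libraries were lower. The log2 fold change there was -4.47 ± 2.10 (SE), which edgeR gave an adjusted p of 0.9999 (0.0451 unadjusted). A region outside both Pi3K21B and its neighbour Stip1 had 3, 11 and 0 against 5, 17 and 10, and there all switched libraries were above control in CPM. The 3 regions at Pi3K21B thus differed in which group was higher, and none passed the test. Ecdysone and nuclear receptor genes had 3 of 13 (23.1%), ERR, Hr39 and ftz-f1, and chromatin remodelling genes 2 of 15 (13.3%), Nurf-38 and Chd1.

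No member passed the test of switched against control flies. The filter on low counts kept 781 of 895 members, and 114 were too sparse to test. edgeR's quasi-likelihood test over 1944 regions of the table called 0 members (and 0% of all tested regions) with a threshold of 0.05 on the adjusted p. Among members its lowest value was 0.855. DESeq2 called 0 as well, with a smallest adjusted p of 0.117. At an unadjusted edgeR p under 0.05, 2 members were higher in switched flies (0.256%, against 0.412% of all tested regions) and 8 lower (1.02%, against 1.18%). DESeq2 gave 10 higher (1.28%, against 1.14% of all regions) and 11 lower (1.41%, against 2.07%). Scaled by library totals alone, edgeR gave 9 higher (1.15%, against 0.977%) and 10 lower (1.28%, against 1.65%). All 3 switched libraries lay above all 3 control libraries at 38 tested members (4.87%, against 3.65% of all tested regions) and below them at 62 (7.94%, against 7.15%). In none of these counts was the members' difference from all tested regions itself tested.

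The log2 fold change of the tested members had a median of -0.24, with quartiles of -1.02 and 0.58, beside a median of -0.23 over all tested regions. Below 0 were 57.7% of the tested members and 59.1% of all tested regions. The median standard error of a member was 1.73, larger in size than both quartiles. The median moved with single libraries: it was 0.06 without switched replicate 1 and -0.59 without switched replicate 2, and without the latter 66 members (7.96%, against 7.19% of all tested regions) were lower at an unadjusted p under 0.05.

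**Figure D5:**
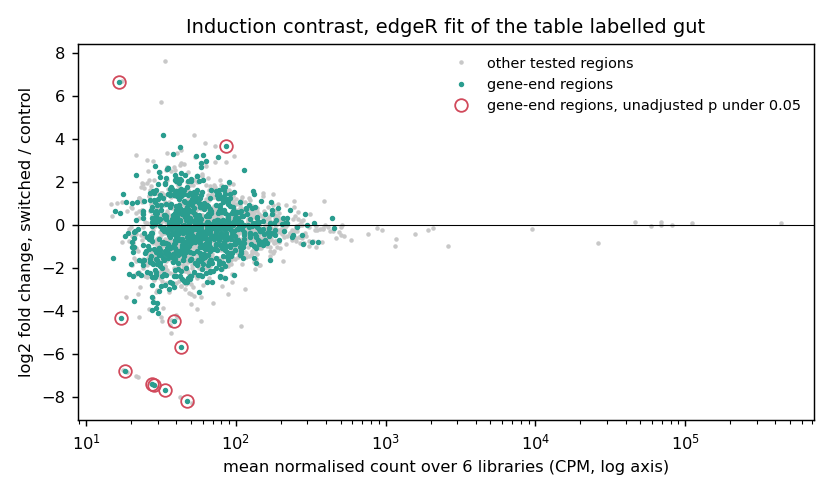
Log2 fold change of switched over control against the mean normalised count over 6 libraries (CPM, log axis) for 781 tested gene-end regions (green) and the other tested regions (grey); red circles mark the 10 gene-end regions with an unadjusted p under 0.05. The members scatter around a median of -0.24, and 6 of the circled regions have 0 counts in all libraries of 1 group.

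At the members with the smallest p-values, 1 group had reads and the other few or none. The region inside Nurf-38 (2R, 24560773 to 24560928), which encodes a subunit of the nucleosome remodelling factor NURF, had 21, 18 and 51 counts (control) and 0 in each switched library. That is at least 33.2-fold lower in switched libraries, with 3 counts over the group as the floor, a bound that covers counting error only. Its edgeR p was 0.00433 and its adjusted p 0.855, while DESeq2 gave an adjusted p of 0.117. eIF1, which helps the ribosome choose the start codon, had 15, 17 and 32 counts at a region inside the gene (3L, 3223597 to 3223721) and 0 in each switched replicate, at least 23.6-fold lower. rogdi had 8, 36 and 18 counts (at least 22.9-fold lower), CG42258 10, 23 and 26 (at least 21.8-fold lower) and CG7987 4, 25 and 14 (at least 15.9-fold lower), all with 0 in the switched libraries. The edgeR adjusted p was 0.855 for all 5. These are low counts in each library, and without adjustment their p-values were 0.00433 to 0.00704.

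In the other direction, CG11857 (3R, 25258940 to 25259048), near which an end of the nuclear pore gene Nup358 also lies, had 0 counts in each control and 2, 30 and 15 in the switched replicates, at least 14.2-fold higher. dup, which encodes the replication licensing factor Cdt1, had 1, 6 and 7 (control) against 30, 60 and 77 (switched) counts at a region on its end, near which SRPK also ends (2R, 15380871 to 15381102). In CPM that was 11.81 ± 5.885 in control and 159.3 ± 60.1 in switched libraries (SD, n = 3). As a log2 fold change this was 3.68 ± 1.49 (SE), for which edgeR's adjusted p was 0.9999 (0.0219 unadjusted). It was the only one of the 5 higher members named here with reads in all 6 libraries. Caf1-55, a histone chaperone subunit shared by NURF and other chromatin complexes, had 0, 8 and 6 counts against 31, 75 and 13. Gpdh1, the glycerol-3-phosphate dehydrogenase gene, had 0, 2 and 5 against 20, 39 and 22, and CG12010 0, 4 and 0 against 16, 25 and 21. The edgeR adjusted p of the last 3 was 0.9999.

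Of the 895 members, 19 had 0 counts in all 3 switched libraries and 9 in all 3 control libraries. Of the 871 regions away from gene ends, 47 and 15 did. The share over all regions of the table was not counted, so no difference is read from these counts. A count of 0 in a group does not show that a region was closed, since switched replicate 1 read only 38% of the members.

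Members at the lists did not pass the test either. None of the tested regions at any list was called. Lipid genes had 4 regions above 0 and 2 below (median log2 fold change 0.29), fat body genes 3 and 2 (0.04), stress genes 3 and 2 (0.17), clock genes 3 and 2 (0.20), and immune genes 2 and 2 (-0.04). Cytochrome P450 genes had 2 above and 9 below (-0.38), nuclear respiratory chain genes 1 and 6 (-0.83) and translation initiation factor genes 2 and 5 (-0.36), beside the -0.23 of all tested regions. Among the lists, CPM summed over members was lower in all switched libraries at haemocyte, insulin and TOR, and chromatin remodelling genes. This was not tested. At insulin and TOR genes, whose members all lie at Pi3K21B, the sum was 115 to 217 CPM in control and 28.9 to 82.2 CPM in switched libraries. Over all regions of the table at insulin and TOR genes the sums overlapped, at 438 to 1582 and 237 to 1182 CPM. At haemocyte genes the member sum was 329 to 521 CPM in control and 145 to 218 CPM in switched libraries. Col4a1, a basement membrane collagen, had 18, 186 and 114 (control) against 0, 108 and 30 (switched) counts. A region at the ends of both NimC1, a phagocytosis receptor gene, and Cyp28a5 had 39, 71 and 72 against 25, 32 and 39. It was nearest to Cyp28a5 and counts in the cytochrome P450 list too. At each of these 2 haemocyte regions taken alone the groups overlapped in CPM. Among single tested regions of the table, all switched libraries lay below control at 7.15%, a share that does not apply to sums over a list. Summed over all regions of the table at haemocyte markers (3 of 6 genes, with Hml, Ppn and eater at none), the level was 398 to 624 CPM in control and 185 to 339 CPM in switched libraries, and its part in the other results was not tested. Over all 9 regions of the table at chromatin remodelling genes the sum was 582 to 840 CPM in control and 208 to 871 CPM in switched libraries, which overlapped. The 2 members among them, of which Nurf-38 was also named for its small p, summed to 97.2 to 167 CPM and 0 to 26.4 CPM. Chd1, a chromatin remodeller, had 8, 30 and 11 against 0, 17 and 0. At both Nurf-38 and Chd1 all switched libraries were below control in CPM, and neither was called. At Chd1 this rested on the scaling, with 27.53 CPM (11 counts) in control replicate 3 against 26.43 CPM (17 counts) in switched replicate 2.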

How the data were processed

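Raw counts of reads at each region, with region lengths in bp, were deposited by the authors as separate tables for the tissues. The submitters' processing notes list FastQC, Trimmomatic, MACS2, featureCounts and DESeq2 without versions or roles. Not given in the sources used here: the aligner, the genome build, pooling for peak calls and removal of duplicate reads. Duplicate reads left in could widen the spread between libraries. Coordinates were read as Release 6, because scaffold names have that assembly's form and midpoints pile up at its gene ends. The gene table was RefSeq's for Release 6 (13962 protein-coding genes, no strands).

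Euchromatic meant a start below 22000000 on 2L, above 6000000 on 2R, below 22900000 on 3L and below 21500000 on X, or an end above 4200000 on 3R. Counts of all regions of the table labelled gut were fitted with edgeR 4.0.16 in R 4.3.3 (low counts removed by filterByExpr at 10, total 15, then TMM factors, quasi-likelihood F test, Benjamini-Hochberg adjustment over 1944 regions; common dispersion 1.38). Standard errors were derived from F and the fold change. CPM used TMM factors. DESeq2 1.42.0 was an alternative. Region classes were compared within libraries by exact sign-flip tests and groups by exact permutation. The edgeR code was run on simulated counts as a check of the code, and how many planted changes it recovered is not reported here. Each pair of libraries differed beyond counting noise. The labels do not say that replicates came from separate animals, so p-values measure the spread between these samples.

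Same-numbered control and switched libraries deviated together (correlations 0.259, 0.190 and 0.108, all above the bound of 0.1), so a block on the numbers was run as an alternative. The main tests of switched against control were unpaired, since the labels state no pairing. The highest value, 0.259, joins the shallow libraries. The pairing comes from the data, and control replicate 3 correlated as highly with switched replicate 2 (0.109).

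Named regions were the 10 highest by mean CPM, the 5 higher and 5 lower with the smallest p, up to 4 per gene list, genes with 3 members, and those at the 500 bp bound. Not all of the list regions are printed. Members and lists were chosen with earlier results of these data known, and some list patterns were narrowed after the symbols they matched were read.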

Additional observations from a re-analysis of the deposited data

How the results depend on the processing

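The count of called members was 0 in each of 22 alternatives: DESeq2 size factors, library totals alone, TMM on the arms, no filter, DESeq2, the replicate block, each library or both shallow ones left out (each library also with DESeq2, chosen after seeing the data) and 3 other membership rules. The smallest adjusted p of a member ranged from 0.0768 (DESeq2 without switched replicate 1) to 1, and was 0.994 with the replicate block, where the median log2 fold change of members was -0.48.

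The share difference of 0.938 points was 0.34 to 1.8 with each library left out, and it turned to -0.701 (exact permutation p = 0.4) with all counts, mitochondrial ones included, as the denominator. Paired by number in a replicate block, which cannot move the difference of 0.938, the exact permutation p was 0.5 (0.25 is the smallest that 3 pairs allow). The difference from shared regions in percent read turned to 1.41 without both shallow libraries and to 0.213 with 5 or more counts in place of 1. The other comparisons of region classes kept their direction in every alternative. With 1 library left out the smallest exact sign-flip p possible is at least 0.0625, and 0.125 without both shallow ones, so missing the threshold there says nothing. Depth limits the set: in switched replicate 1 most members had no count.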
